A study of Mus musculus with 6 samples.

Results

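A list of 34 mouse genes of the interferon system was followed in small intestinal organoids labelled as Snai1 knockout or control. The list was taken by gene symbol and holds interferon receptors, sensors of foreign nucleic acid, the transcription factors of the response and genes that interferon induces. Platform probes carried 33 of the 34 symbols among 19057 named genes, and Ifi44 is not analysed here. Where several probes carried a symbol, the one with the highest mean over the 6 arrays stood for the gene.

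Organoids are epithelial structures grown in gel from intestinal crypts. The knockout group came from mice with the Villin-Cre transgene and floxed Snai1 alleles (Villin-Cre, Snai1fl/fl), and the control group from mice with Villin-Cre alone, with 3 arrays each. The Villin promoter drives Cre in the intestinal epithelium. Organoids of both groups received 0.5 µM tamoxifen and RNA was taken at 24 hours, so neither group is free of Cre or of tamoxifen. No interferon treatment is named for either group, so the values are read here as a baseline without added interferon. The labels give no age for the mice, and whether replicates were separate mice or separate cultures is not stated in them. The p-values therefore cover only the variation among these 6 samples, and that variation may be technical.

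Type I interferons bind the receptor chains Ifnar1 and Ifnar2, and interferon gamma binds Ifngr1 and Ifngr2. The receptors act through Janus kinases on Stat proteins. Stat2 and Irf9 take part in the complex that binds the interferon-stimulated response element (ISRE), while the response to interferon gamma acts through the gamma-activated site (GAS). Among the induced genes are the Ifit and Oas families, which bind or sense foreign RNA, the ubiquitin-like protein Isg15, and GTPases that attack intracellular microbes. In the gut epithelium type III interferon, which signals through Ifnlr1 and Il10rb, is known as a main antiviral cue.

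Values are log2 as deposited, with base 2 assumed, and the authors had given all 6 arrays the same distribution. The median of all values was 7.87, close to the bottom of the scale, and the upper quartile was 8.27. Low values are compressed, so differences of dim probes are understated by an unknown amount. Arrays correlated at r = 0.994 to 0.997 over all probes. Snai1 itself did not check the labels: its brighter probe averaged 7.91 ± 0.05 on knockout arrays and 7.91 ± 0.04 on control arrays (SD, n = 3 each; two-sided exact permutation p = 0.9, with 0.1 the smallest possible). The other Snai1 probe averaged 7.87 ± 0.04 on knockout arrays and 7.86 ± 0.03 on control arrays (exact permutation p = 0.6). Probes differ in how well they bind, so a level here places a probe on the array's scale and is not an amount of transcript. Epcam, which intestinal epithelium expresses throughout, read only 8.12 and Fabp2, a fatty acid carrier of enterocytes, 7.81, so a dim probe does not show that a transcript is absent.

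None of the 33 genes passed the test of knockout against control (limma, adjusted p from 0.62 to 1.00 over all genes), where 0.131% of all genes passed (0.0367% higher and 0.0945% lower in the knockout). With the replicate number as a block none of the 33 passed either, against 0.0472% of all genes. At an unadjusted p under 0.05 there were 2, Ifngr1 higher and Ifngr2 lower, against 7.22% of all genes. The median difference over the 33 was 0.003, against -0.001 over all genes, and 30 of the 33 differed by less than 0.1 on the log2 scale. In 6 of the 33 the groups did not overlap, which is 18.2% against 12% of all genes. Without overlap, 5 of the 33 (Ifnar1, Ifngr2, Oas2, Oasl1 and Rtp4) were lower in the knockout, against 5.85% of all genes. Likewise 1 of the 33 (Ifngr1) was higher, against 6.2% of all genes. A higher mean on knockout arrays was found in 18 of the 33, which is 54.5% against 49.3% of all genes. Averaged over the 33 genes, the arrays read 8.48, 8.44 and 8.48 in the knockout and 8.47, 8.46 and 8.48 in the control.

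**Figure D1:**
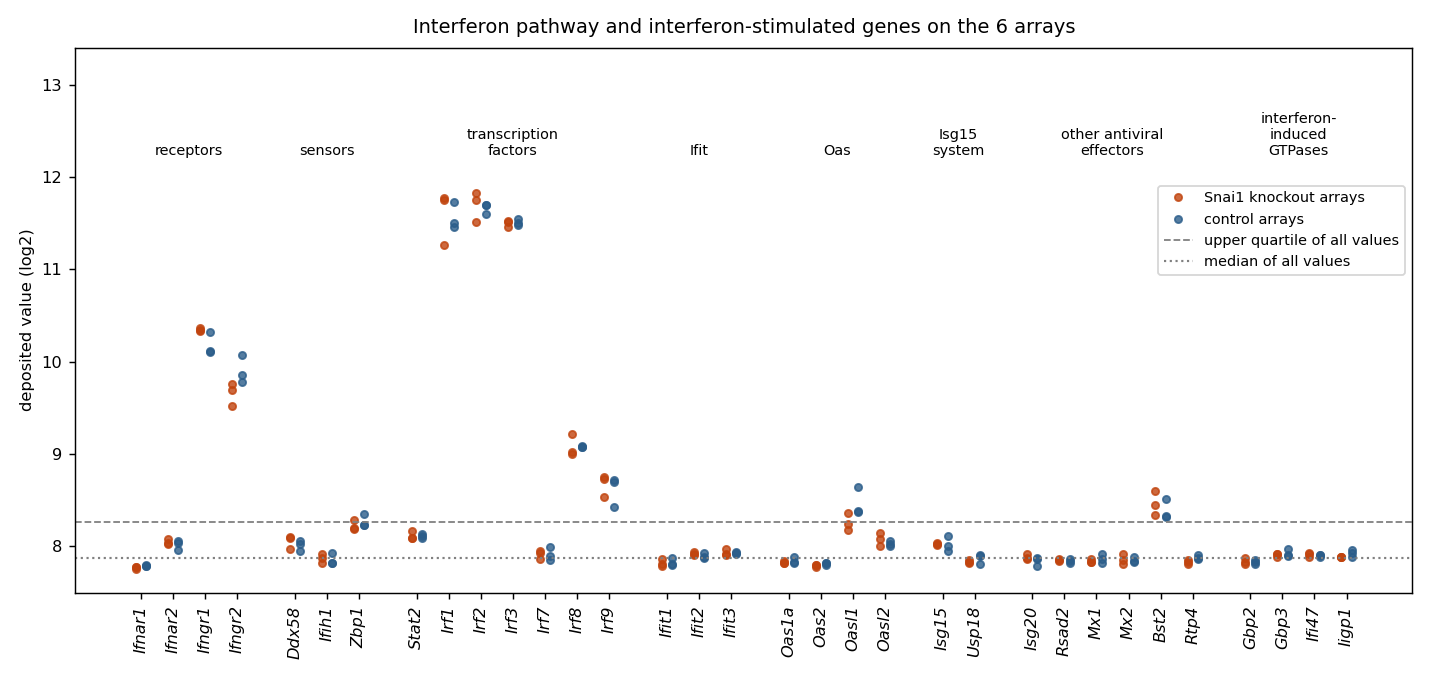
Deposited value (log2) of each gene on the 3 knockout arrays and the 3 control arrays, one point per array, grouped by role. Irf1, Irf2 and Irf3 sat between 11.27 and 11.83, the interferon gamma receptor chains between 9.52 and 10.36, and most effector genes near the median of all values at 7.87.

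At baseline the list split by role. Over the 6 arrays 9 of the 33 genes lay above the upper quartile of all values, 27.3% against 36.6% of all genes. These were 5 of 7 transcription factors, both interferon gamma receptor chains, Oasl1 and Bst2. The groups did not overlap in 3 of these 9, against 14.9% of all genes above the upper quartile. Of the 19 measured effector genes, 10 lay at or under the median of all values (52.6%, against 39.4% of all genes). Their own median of 7.87 was brighter than 48.8% of all probes, while the median over all genes was brighter than 61.4%. Just outside the upper quartile was Zbp1 at 8.25, and just inside was Oasl1 at 8.36.

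The receptors differed by type. Ifngr1, the chain that binds interferon gamma, read 10.36, 10.34 and 10.34 on knockout arrays, against 10.11, 10.11 and 10.32 on control arrays. The knockout values lay close together and above all control values, but control replicate 3 came within 0.02 of its knockout partner. The difference was 0.17 ± 0.06 (SE), 1.12-fold, and it did not pass over all genes (adjusted p = 0.62, limma). Without control replicate 3 it was 0.23 (adjusted p = 0.12, limma). Without control replicate 1 or 2 it was 0.13 (adjusted p = 0.85 and 0.83, limma). Its probe was brighter than 92.0% of all probes.

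Ifngr2, the chain that completes the interferon gamma receptor, read 9.69, 9.76 and 9.52 on knockout arrays, against 9.78, 10.08 and 9.86 on control arrays. All knockout values were below all control values, with 0.02 between the closest pair. The difference was -0.25 ± 0.09 (SE; adjusted p = 0.65, limma), so control exceeded knockout 1.19-fold. Its other 2 probes did not share this difference. The brighter of them averaged 9.43 in the knockout and 9.42 in the control, a difference of 0.00 ± 0.06, and the dimmest 9.04 and 8.97, a difference of 0.07 ± 0.12. Without control replicate 2 the brightest probe differed by -0.16. All 3 lay above the upper quartile, and the mean of the probes differed by -0.06 (adjusted p = 0.89).

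The type I receptor probes were dim. Ifnar1 read 7.78, 7.75 and 7.78 on knockout arrays and 7.79, 7.79 and 7.80 on control arrays. It was brighter than only 1.55% of all probes, and although the groups did not overlap, the difference was -0.02 ± 0.02 (SE). Ifnar2 read 8.08, 8.03 and 8.03 in the knockout and 8.06, 8.04 and 7.96 in the control, and the groups overlapped. Its other 2 probes read 7.94 and 7.82 over the 6 arrays. The type III chains, not on the list, were brighter, with Ifnlr1 at 8.97 ± 0.20 in the knockout and 8.92 ± 0.05 in the control, and Il10rb at 9.38 ± 0.12 and 9.34 ± 0.13 (SD, n = 3 each).

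The sensors were near or under the upper quartile. Zbp1, which binds nucleic acid in the Z form and can start cell death, read 8.29, 8.19 and 8.20 on knockout arrays, against 8.35, 8.23 and 8.23 on control arrays. The ranges overlapped, yet each knockout array lay below the control array of its number (difference -0.04 ± 0.05, SE). The other Zbp1 probes, at 7.81 and 7.80, had the opposite sign (0.02 and 0.01), the former without overlap. The mean of the gene's probes differed by -0.01. In the GRCm38.p6 gene order 37 measured genes separate Zbp1 from Snai1, and the part of that position in its values was not tested. Ddx58 (RIG-I), a sensor of viral RNA, averaged 8.05 ± 0.07 in the knockout and 8.01 ± 0.05 in the control (SD, n = 3 each). Ifih1, a related RNA sensor, averaged 7.87 ± 0.05 and 7.86 ± 0.06, at the array's median.

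Transcription factors held the brightest probes. Irf2, known as a counterweight to Irf1, read 11.83, 11.51 and 11.75 on knockout arrays and 11.69, 11.70 and 11.60 on control arrays. Irf1, an early target of interferon gamma, read 11.75, 11.27 and 11.77 in the knockout and 11.73, 11.46 and 11.50 in the control. In both genes knockout replicate 2 was the lowest of the 6 arrays and the other 2 knockout arrays were the highest, so the groups overlapped and the spread was wider in the knockout. The differences were 0.03 ± 0.08 for Irf2 and 0.03 ± 0.15 for Irf1 (SE; adjusted p = 0.99 and 1.00, limma). For Irf1 the 95% interval ran from -0.34 to 0.41, so these arrays do not exclude a difference within that range.

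Irf3, which is made constitutively and activated by phosphorylation after sensing, read 11.46, 11.51 and 11.52 on knockout arrays, against 11.50, 11.48 and 11.54 on control arrays. It was the steadiest of the bright genes, with a 95% interval of the difference from -0.08 to 0.06. Irf8, best known from myeloid cells, read 9.03, 9.01 and 9.22 in the knockout, against 9.09, 9.08 and 9.08 in the control. Control values lay within 0.02 of each other, and knockout values fell on both sides of them.

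Irf9, the DNA-binding partner of Stat2, read 8.75, 8.54 and 8.73 on knockout arrays, against 8.69, 8.43 and 8.72 on control arrays. Replicate 2 was lowest in both groups, and each knockout array was above the control array of its number, by 0.01 to 0.11. Its other probe, at 7.99, had the opposite sign (-0.04). Stat2 averaged 8.12 ± 0.04 in the knockout and 8.12 ± 0.02 in the control (SD, n = 3 each). Irf7, which interferon induces to amplify the response, averaged 7.92 ± 0.04 and 7.92 ± 0.07, and was the dimmest of the 7 factors.

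**Figure D2:**
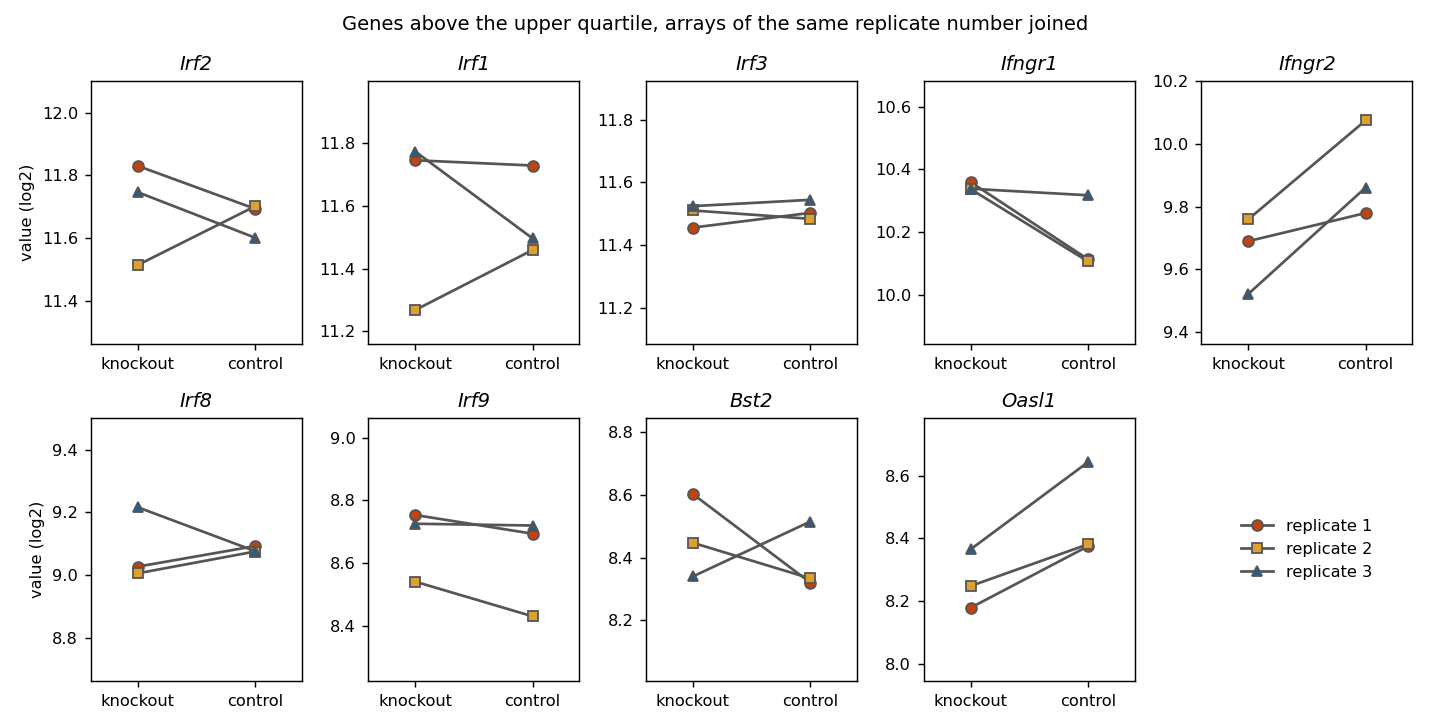
Values (log2) of the 9 genes above the upper quartile, with the knockout array on the left joined to the control array of the same replicate number on the right; every panel spans the same height. Ifngr2 and Oasl1 were lower and Ifngr1 and Irf9 higher on the knockout array in 3 of 3 pairs, while Irf1, Irf2, Irf3, Irf8 and Bst2 were mixed.

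The promoters were searched for the core letters of both elements. RefSeq promoters of GRCm38.p6, from 250 bases before to 50 bases after a transcript's start, were found for 26 of the 33 measured genes. The ISRE core was searched as TTTC, any 2 bases and TTTC, and the GAS core as TTC, any 3 bases and GAA, on both strands. These 2 cores can overlap and did so in Bst2. The ISRE core was found in 12 of the 26 genes (46.2%), against 3.99% of 27025 genes with a promoter and 3.44% of 32851 promoters. Among genes at or under the upper quartile it was found in 10 of 17, and among those above it in 2 of 9, Irf2 and Bst2. By role it was found in 8 of the 13 effector genes with a promoter. A match is a string of letters and not a shown binding site. The list was chosen as genes of the interferon system, so its share of either core describes that choice and not these arrays.

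The windows below show the ISRE core in 7 effector genes, Bst2 the brightest of them, and in the bright transcription factor gene Irf2. Capitals mark the bases of ISRE core matches, on either strand, each line runs 5′ to 3′ on the gene's strand, and all lie before the start.
Isg15, chr4:156200860-156200911, minus strand, 3 overlapping matches: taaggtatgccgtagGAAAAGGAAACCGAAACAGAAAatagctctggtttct
Ifit1, chr19:34640770-34640828, plus strand: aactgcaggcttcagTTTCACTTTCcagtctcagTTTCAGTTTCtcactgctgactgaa
Ifit3, chr19:34583358-34583431, plus strand: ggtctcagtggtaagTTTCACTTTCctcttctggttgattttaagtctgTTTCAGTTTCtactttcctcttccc
Gbp2, chr3:142620589-142620628, plus strand: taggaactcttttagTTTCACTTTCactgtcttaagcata
Rsad2, chr12:26456548-26456587, minus strand: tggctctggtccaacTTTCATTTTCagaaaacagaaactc
Oas1a, chr5:120907526-120907560, minus strand: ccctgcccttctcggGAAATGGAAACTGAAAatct
Bst2, chr8:71537572-71537617, minus strand: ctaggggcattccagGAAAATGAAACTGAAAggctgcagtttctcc
Irf2, chr8:46739495-46739528, plus strand: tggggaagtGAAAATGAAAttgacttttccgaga

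The GAS core was found in 9 of the 26 genes (34.6%), against 9.55% of all genes with a promoter. Among genes at or under the upper quartile it was found in 5 of 17, and among those above it in 4 of 9. Irf1 and Irf8, for which regulation by interferon gamma is known, are shown with the core in capitals.
Irf1, chr11:53769909-53769947, plus strand: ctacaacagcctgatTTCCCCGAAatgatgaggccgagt
Irf8, chr8:120736172-120736228, plus strand: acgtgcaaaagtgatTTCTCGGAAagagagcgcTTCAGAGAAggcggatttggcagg

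The Isg15 system was dim to middling on the array's scale. Isg15, a ubiquitin-like modifier, read 8.02, 8.03 and 8.04 on knockout arrays, against 8.01, 7.95 and 8.11 on control arrays. The knockout values fell inside the control range, and the 95% interval of the difference ran from -0.10 to 0.11. Usp18, which removes Isg15 from proteins and dampens the type I receptor, read 7.86, 7.82 and 7.83 in the knockout and 7.90, 7.81 and 7.90 in the control.

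The Ifit genes encode proteins that bind RNA with foreign ends. Ifit1 averaged 7.82 ± 0.04 on knockout arrays and 7.83 ± 0.04 on control arrays, Ifit2 7.92 ± 0.02 and 7.90 ± 0.03, and Ifit3 7.93 ± 0.04 and 7.93 ± 0.01 (SD, n = 3 each). None of the 3 had groups that did not overlap. Ifit3 has a near-identical neighbour, Ifit3b, which its probe may also see.

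Among the Oas genes Oasl1, which in mouse restrains translation of Irf7, stood above the rest. It read 8.18, 8.25 and 8.36 on knockout arrays, against 8.37, 8.38 and 8.64 on control arrays. Replicate 3 was highest in both groups, and each knockout array was lower than its control partner, by 0.20, 0.13 and 0.28. The difference was -0.20 ± 0.09 (SE; adjusted p = 0.72, limma), so control exceeded knockout 1.15-fold. Without control replicate 3 it was -0.11, and so it was with the mean of the gene's probes. With the replicate number as a block the unadjusted p was 0.0036 and the adjusted p 0.18, the lowest of the 33 genes in that fit. Its other 2 probes, at 8.16 and 7.90, were lower by the same sign, at -0.10 ± 0.08 and -0.04 ± 0.02 (SE).

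Oas2, an oligoadenylate synthetase, read 7.78, 7.79 and 7.80 on knockout arrays and 7.82, 7.80 and 7.82 on control arrays. Before rounding the groups did not overlap, but at the bottom of the scale the difference was only -0.02 ± 0.02 (SE). Oas1a, of the same enzyme family, averaged 7.83 ± 0.01 in the knockout and 7.84 ± 0.03 in the control, and Oasl2 8.08 ± 0.07 and 8.03 ± 0.03 (SD, n = 3 each). Probes of the Oas1 genes may see their relatives.

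Bst2 (tetherin), which holds budding virus at the cell surface, read 8.60, 8.45 and 8.34 on knockout arrays, against 8.32, 8.33 and 8.51 on control arrays. The groups overlapped, and replicate 3 went against the other 2 pairs (difference 0.07 ± 0.08, SE). Rtp4, an interferon-induced chaperone of membrane receptors, read 7.85, 7.81 and 7.83 in the knockout, against 7.86, 7.87 and 7.90 in the control. These groups did not overlap, with a difference of -0.05 ± 0.02 (SE; adjusted p = 0.73, limma). The second Rtp4 probe gave the opposite, 7.86 in the knockout and 7.83 in the control, also without overlap.

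Isg20, an exonuclease that degrades RNA, read 7.86, 7.88 and 7.92 on knockout arrays and 7.79, 7.87 and 7.88 on control arrays. It was higher in 3 of 3 pairs, while the ranges overlapped. Rsad2 (viperin), which makes a chain-terminating nucleotide, averaged 7.85 ± 0.01 in the knockout and 7.84 ± 0.02 in the control. The dynamin-like GTPase Mx1 averaged 7.84 ± 0.02 and 7.87 ± 0.05, and Mx2 7.86 ± 0.05 and 7.85 ± 0.03 (SD, n = 3 each).

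The 4 GTPases of the list, which act against intracellular microbes, lay under the upper quartile, between 7.83 and 7.92. Iigp1 read 7.89 on all 3 knockout arrays, against 7.88, 7.97 and 7.93 on control arrays. The narrow knockout values lay within the control range (difference -0.04 ± 0.03, SE), and all 4 probes of the gene had the same sign. Gbp2 averaged 7.84 ± 0.03 in the knockout and 7.83 ± 0.02 in the control, Gbp3 7.91 ± 0.02 and 7.92 ± 0.04, and Ifi47 7.91 ± 0.02 and 7.90 ± 0.01 (SD, n = 3 each). The other Gbp2 probes, at 7.80 and 7.79, were lower in the knockout without overlap (-0.04 ± 0.02 and -0.03 ± 0.02, SE). The mean of the Gbp2 probes differed by -0.02.

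**Figure D3:**
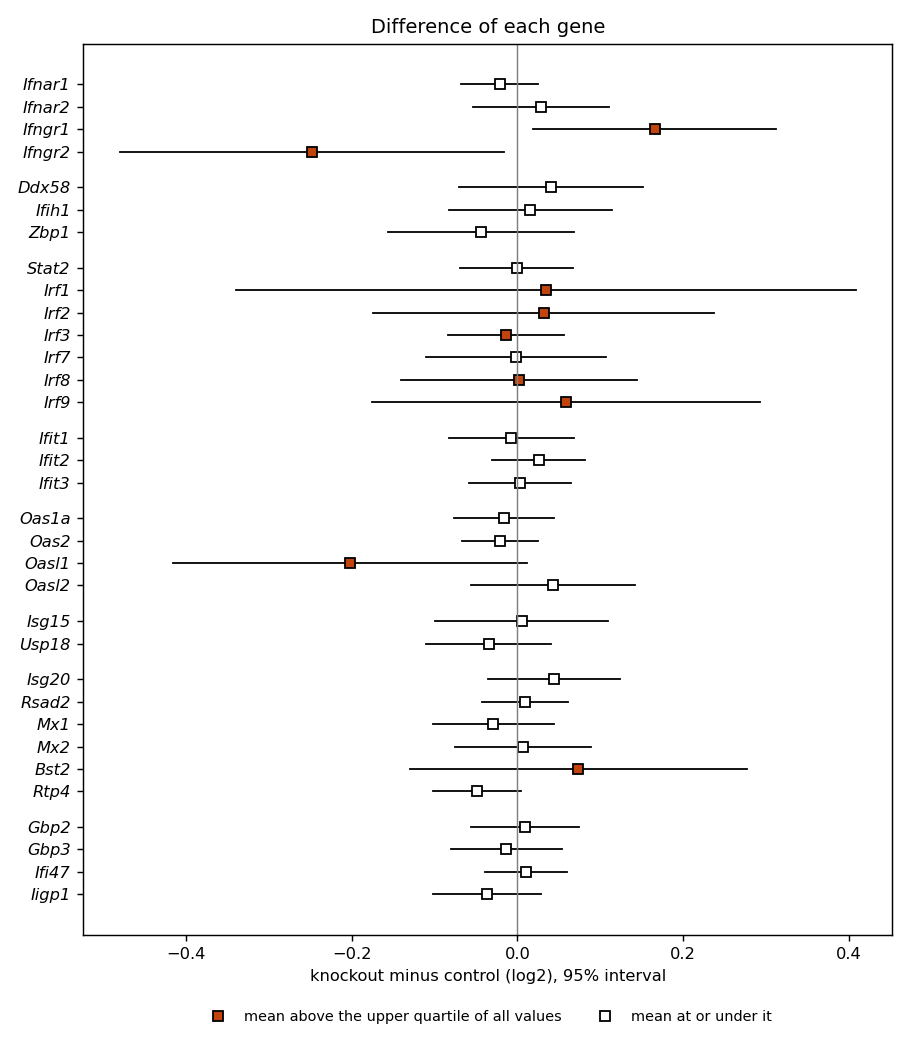
Difference of each gene, knockout minus control (log2), with its 95% interval from the fit over all genes without the replicate block; filled squares are genes with a mean above the upper quartile. In that fit the intervals of Ifngr1 and Ifngr2 leave out 0 on opposite sides, while with the block Oasl1 too had an unadjusted p under 0.05 (0.0036), and none of the 33 genes passed over all genes.

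The standard errors were smaller among the dim genes, with a median of 0.03 for the 24 genes at or under the upper quartile and 0.08 for the 9 above it. Among the 24 every difference was within 0.05 of 0, and the intervals ran from -0.16 at the lowest to 0.15 at the highest. Among the 9 above it the standard error reached 0.15. The narrow intervals of dim genes lie on the compressed part of the scale and do not bound a change in transcript.

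Of the 33 genes 16 had several probes, and in 11 of these 16 the probes differed in sign. For 11 of the 16 no probe exceeded the upper quartile, for Irf3 and Ifngr2 all did, and for Irf1, Irf9 and Oasl1 some did. The 5 probes of Irf1 ranged from 7.94 to 11.58 and differed between -0.07 and 0.03. All 3 probes of Irf3 were lower in the knockout, at -0.01, -0.08 and -0.07, and none passed. No probe of the 62 was called in the fit of all probes (limma, lowest adjusted p = 0.73), where 0.106% of named probes were, and 4 (6.45%) had an unadjusted p under 0.05, against 6.97% of named probes.

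**Figure D4:**
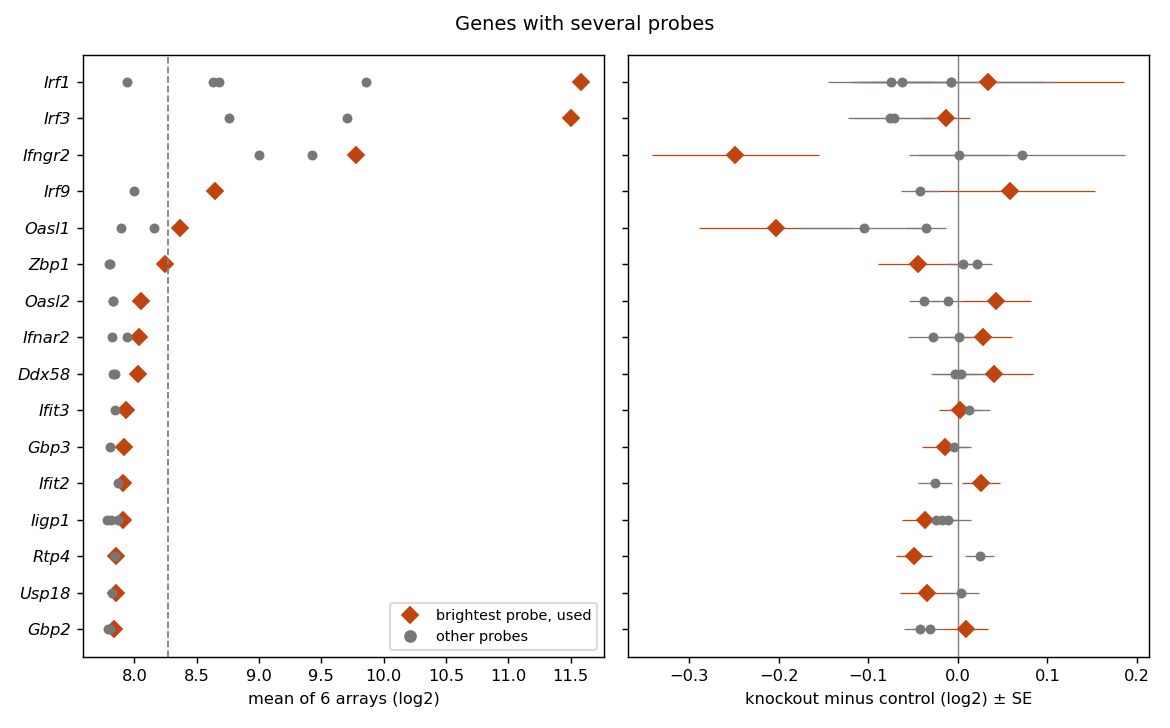
Mean of 6 arrays (left, log2) and knockout minus control with its standard error (right, log2) for each probe of the 16 genes with several probes; diamonds are the brightest probes. The 3 Oasl1 probes lie on the same side of 0, while the brightest Ifngr2 probe, at -0.25, stands apart from the other 2.

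Other genes of the pathway were read from hand-made lists. None of 20 interferon ligand genes was called (limma; 0 also at an unadjusted p under 0.05), against 0.131% and 7.22% of all genes. Of the 20, 12 lay at or under the median of all values (60%, against 39.4% of all genes). The groups did not overlap in 6 of the 20 (30%, against 12%), 3 higher and 3 lower in the knockout, and 14 of the 20 had a lower mean in the knockout (70%, against 50.7%). Ifnab, at 8.54 ± 0.09 in the knockout and 8.49 ± 0.02 in the control (SD, n = 3 each), and Ifna6, at 8.22 ± 0.12 and 8.33 ± 0.12, were the brightest, and probes of these many-copy genes may see their relatives. Ifna1 read 7.97 ± 0.02 and 8.01 ± 0.03, and Ifnb1 7.80 ± 0.01 and 7.81 ± 0.03. Ifna11, Ifnz and Ifna15 differed by -0.05, -0.06 and -0.05 and Ifnk by 0.04, all near the bottom of the scale.

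Of 21 further receptor and signalling genes 14 lay above the upper quartile (66.7%, against 36.6% of all genes) and none was called (limma; 1 at an unadjusted p under 0.05, 4.76% against 7.22%). That gene was Tyk2, a kinase of the type I receptor, at 9.81 ± 0.06 in the knockout and 9.65 ± 0.08 in the control (SD, n = 3 each; adjusted p = 0.51). Stat3, which many cytokines activate, differed by 0.22 ± 0.12 (SE) and the kinase Tbk1, which phosphorylates Irf3, by 0.09 ± 0.05. Tlr7, a sensor of single-stranded RNA, differed by -0.04 ± 0.02 (SE) at the bottom of the scale. The adaptor Myd88 averaged 11.05 ± 0.08 and 11.01 ± 0.09, and the ubiquitin ligase Trim25, which acts on RIG-I, 10.31 ± 0.09 and 10.28 ± 0.15.

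Of 93 other interferon-stimulated genes none was called (limma), nor with the replicate number as a block. At an unadjusted p under 0.05 there were 9, 4 higher and 5 lower (limma; 9.68%, against 7.22% of all genes). With the block there were 15 (limma; 16.1%, against 10.9% of all genes). Above the upper quartile lay 39 of the 93 (41.9%, against 36.6% of all genes). The brightest were B2m, the light chain of class I molecules, at 12.85 ± 0.09 in the knockout and 13.14 ± 0.04 in the control (adjusted p = 0.23, limma), the GTPase gene Irgm1 at 12.51 ± 0.29 and 12.77 ± 0.16, Lgals3bp, a secreted glycoprotein, at 12.58 ± 0.05 and 12.45 ± 0.06, and the class I gene H2-D1 at 12.39 ± 0.05 and 12.28 ± 0.13 (SD, n = 3 each). Those of lowest p besides B2m were Trafd1, a brake on innate signalling, at 0.19 ± 0.03 (SE; adjusted p = 0.24), Uba7, the enzyme that activates Isg15, at -0.26 ± 0.05 (adjusted p = 0.30), and Shisa5 at 0.31 ± 0.08 (adjusted p = 0.36).

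**Figure D5:**
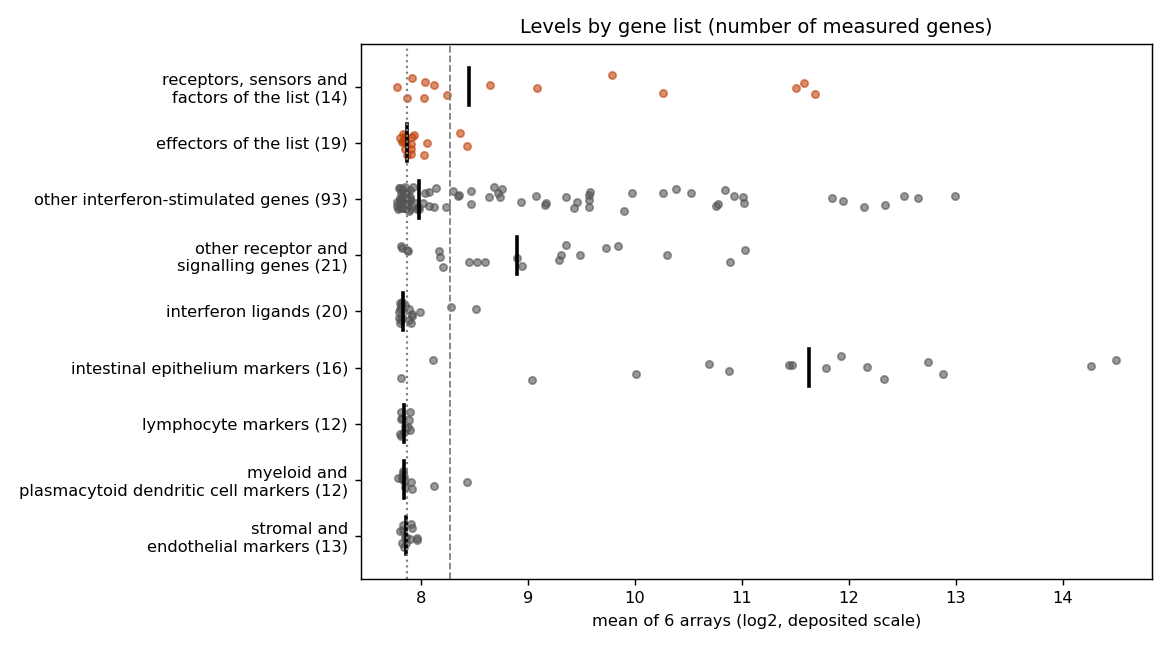
Mean of 6 arrays (log2) of the measured genes of each list, one point per gene, with a bar at each list's median; the dotted line is the median and the dashed line the upper quartile of all values. The effectors lie with the interferon ligands and the lymphocyte and stromal markers near 7.87, and the intestinal epithelium markers have a median of 11.62.

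Marker genes checked the labelled tissue. Of 16 intestinal epithelium markers 14 lay above the upper quartile, the brightest being Lyz1 (14.45 ± 0.05 in the knockout and 14.55 ± 0.02 in the control, SD, n = 3 each), Krt8 (14.30 ± 0.12 and 14.22 ± 0.15) and Krt19 (12.84 ± 0.10 and 12.93 ± 0.10). None of 12 lymphocyte markers did, and the brightest, Cd3e, Cd79b and Cd4, averaged 7.90, 7.90 and 7.89. Of 13 stromal and endothelial markers none did, with Kdr at 7.97, Acta2 at 7.96 and Pdgfra at 7.92. Of 12 myeloid and plasmacytoid dendritic cell markers only Bst2, which is on both lists, did, followed by Cd14 at 8.13 and Zbtb46 at 7.92. Ptprc, the pan-leukocyte marker, was at 7.81 and Csf1r, of macrophages, at 7.91, beside the bright Irf8.

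The mean over the lymphocyte markers was 7.85 on each knockout array and ran from 7.83 to 7.85 on control arrays, and over the myeloid markers from 7.90 to 7.94 and from 7.90 to 7.95. Of the 33 interferon genes 17 read within the range of the 25 lymphocyte and stromal markers, 7.80 to 7.97, 15 read above it and Ifnar1 below it. In bulk samples fewer cells of a type and less RNA per cell cannot be told apart, and the part of other cells in these values was not tested.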

How the data were processed

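Per the labels' protocols, cRNA with biotin was made from the RNA of 6 organoid samples and read on Illumina arrays. The deposited table holds log2 values for 45281 probes, with base 2 assumed from their range. After sorting, no value differed by more than 0.0019 between arrays, so the authors made the distributions equal. No further normalization was applied. The labels name neither software nor background correction, and no detection calls were used. The platform annotation paired 34885 probes with 1 gene, 18 with several and 10378 with none. By gene number 34807 matched the GRCm38.p6 table, and no symbol changed.

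The test of knockout against control, 3 arrays against 3, used limma 3.58.1 under R 4.3.3 over 19057 genes (lmFit, eBayes without trend, no filter). The number of arrays limits the precision. A gene passed at a Benjamini-Hochberg adjusted p under 0.05. The test was checked on simulated data with independent arrays and with changes in bright genes only. Those changes were larger than any difference of the listed genes, so the check does not cover differences of their size or dim genes. Intervals are 95% intervals. All 34 genes are named. Values of every array are given for the 4 receptors, the 10 brightest and the 8 of lowest p, and for Isg15, which was added after its values were seen. Of the other interferon lists the 4 genes of lowest p and the 4 brightest are named, and of marker lists the 3 brightest, with others (Epcam, Fabp2, Ptprc, Csf1r, Ifnlr1, Il10rb, Ifnb1 and Samd9l) named after their values were seen. The genes and lists were chosen with earlier results of these data known.

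Deviations from group means correlated at r = 0.35, 0.33 and 0.46 between arrays of the same replicate number. The main test left this correlation out, and the fit with the number as a block was an alternative. The labels do not say what a number shares, and all printed errors and intervals come from the fit without this block. Alternatives were filters on dim probes, another normalization, the replicate block, probe choice, the variance model, array weights and leaving out each array.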

Additional observations from a re-analysis of the deposited data

How the results depend on the processing

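None of the 33 genes was called under any of the 15 alternatives, with the lowest adjusted p at 0.12, for Ifngr1 without control replicate 3 (limma). With the replicate block 0 of the 33 were called, 3 (9.09%) had an unadjusted p under 0.05 (Ifngr1, Ifngr2 and Oasl1), against 10.9% of all genes, and the calls over all genes fell to 9 of 19057. With an intensity trend and robust prior 1 of the 93 other interferon-stimulated genes was called, Samd9l, and none of the 33. That setting called 71 of all 19057 genes, against 25 in the main fit. The sign of the difference was the same under every alternative that measured the gene for 15 of the 33, among them Ifngr1, Ifngr2, Oasl1 and Bst2, and turned at least once for 18, none of them called. The block, the filters on dim probes and the variance model leave a difference unchanged, so they could not turn a sign. Nor could probe choice for genes with 1 probe, such as Ifngr1 and Bst2. For Ifngr2 the probes other than the brightest did not share its lower value. The number whose groups did not overlap was 3 of 33 with the mean of a gene's probes (12.3% of all genes), 3 among the 21 above the median (13.7%) and 3 among the 9 above the upper quartile (14.9%), where 6 had a higher mean in the knockout. Leaving out 1 array gave 7 to 12 of the 33 without overlap, against 19.9% to 24.4% of all genes, a share that itself rises with fewer arrays. There were 10 of 33 without knockout replicate 1 (24.4% of all genes), 12 without knockout replicate 2 (21.0%) and 7 without knockout replicate 3 (19.9%). For the control replicates there were 7 of 33 without replicate 1 (21.5%), 10 without replicate 2 (22.3%) and 8 without replicate 3 (22.8%). Calls over all genes ran from 4 to 23 without 1 array, and were 41 above the upper quartile and 71 with the trend. Without 1 array 14 to 18 genes had a higher mean in the knockout, and the median difference ran from -0.006 to 0.004. It ran from -0.006 to 0.032 over all 15 alternatives. Dim probes limit what these arrays can show, since 24 of the 33 lay at or under the upper quartile, on the compressed part of the scale.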

Other observations

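Samd9l, an interferon-induced gene that restrains growth and viral translation, had the largest difference of the 93 other interferon-stimulated genes. It read 9.20, 9.09 and 9.54 on knockout arrays, against 9.73, 9.82 and 10.13 on control arrays, and the groups did not overlap. The difference was -0.62 ± 0.15 (SE; adjusted p = 0.37, limma), so control exceeded knockout 1.53-fold, in 3 of 3 pairs. Its adjusted p was 0.070 with the replicate block and 0.020 with an intensity trend and robust prior (limma). The latter setting called 71 of 19057 genes, against 25 in the main fit. Over the 15 alternatives the difference ran from -0.75 to -0.50 and the adjusted p from 0.020 to 0.66.

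The ISRE core was also frequent in the promoters of the other lists, in 33 of 77 other interferon-stimulated genes (42.9%) and 11 of 20 interferon ligand genes (55%), against 3.99% of all genes with a promoter. Among further receptor and signalling genes it was found in 2 of 19, and among intestinal epithelium markers in 1 of 11. The interferon lists were made by hand, so their shares too describe the choice of genes.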
